A study of Ptychodera flava with 8 samples.

Results

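Accessible chromatin was compared between late gastrula and mid gastrula of Ptychodera flava. This acorn worm belongs to the hemichordates, marine invertebrates related to echinoderms and chordates. Both groups were whole animals with no treatment named, pooled to 75000 cells per sample, with 2 libraries per stage. The comparison used 4 of the 8 libraries of the series, which also covers earlier stages. It rests on all peaks of 2 lists, 64713 peaks at late gastrula and 43317 at mid gastrula, so 108030 of the 202721 peaks listed over all stages. Peaks were matched where they overlapped by at least 1 bp, and those without such a partner are called late-only and mid-only.

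In ATAC-seq the Tn5 transposase cuts and tags DNA that nucleosomes leave free, so peaks lie at promoters, enhancers and other exposed DNA. Gastrulation is the folding inward of the blastula that forms the gut and sets apart the germ layers, and enhancers are known to open and close as cells of these layers take up their fates. Whole animals mix all of these cells, so a region open in fewer cells and a region less open in each cell cannot be told apart.

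Each stage had 1 list and no value per library. No difference between the stages could therefore be set against the spread between replicates, and none was tested. The lists hold no read counts, so depth is unknown. Intervals below are at the 95% level and cover the counting of peaks only. Enrichment (a fold over background), −log10 p and a score capped at 1000 are the authors' values for each peak. They were used to rank peaks within a list, as a percentile of 0 to 100 with 100 for the highest. Enrichment and −log10 p are also given as such for named sites. With depth unknown, these values are not to be compared between the lists. Positions are 1-based on the scaffolds named in the lists, for which the sources name no genome build. Genes and DNA sequence are therefore not used, and the labelled stages were not checked against marker genes.

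Most peaks of the mid gastrula list had a late gastrula partner, while the late gastrula list held a large set of peaks with no mid gastrula partner. In the late gastrula list 39479 of 64713 peaks had a mid gastrula match, or 61.0% (Wilson interval 60.6 to 61.4). In the mid gastrula list 39121 of 43317 had a late gastrula match, or 90.3% (90.03 to 90.6). That left 25234 late-only peaks against 4196 mid-only peaks. Late-only peaks made up 39.0% of the late gastrula list but 32.6% of the DNA it covered, 6.60 of 20.3 Mb. Mid-only peaks made up 9.69% of the mid gastrula list and 7.76% of its 14.7 Mb.

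Most matches were simple. Of the 39962 overlapping pairs, 37413 (93.6%) joined 1 late gastrula peak with 1 mid gastrula peak. A further 1528 late gastrula peaks shared 749 mid gastrula peaks, each of which met 2 or 3 of them. The reverse, 1 late gastrula peak over several mid gastrula peaks, occurred 414 times and took in 833 mid gastrula peaks. Only 62 groups joined several peaks on both sides. The undivided peak was broad in either case. Where several late gastrula peaks faced 1 mid gastrula peak, the median widths were 262 bp at late and 615 bp at mid gastrula. Where 1 late gastrula peak faced several mid gastrula peaks, they were 669 bp at late and 293 bp at mid gastrula. In the 719 groups with 2 late gastrula peaks, these lay a median of 44 bp apart and their summits 303 bp apart. In the 409 groups with 2 mid gastrula peaks the values were 37 bp and 320 bp. The summit of the undivided peak fell inside one of the narrower peaks in all 719 and all 409 groups. A single interval at one stage and a pair of intervals at the other thus differed by a short unlisted stretch between them.

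Peaks ranking high in their own list had a partner more often than peaks ranking low. Among late gastrula peaks the matched share was 41.3% in the lowest decile of enrichment and 93.3% in the highest. It stayed between 46.6% and 47.5% from the second to the fourth decile and was higher in each decile after that. Among mid gastrula peaks the share was 83.4% in the lowest decile and 98.1% in the highest. By −log10 p the gradient was steeper. In the late gastrula list the matched share was 14.9% in the lowest decile and 99.1% in the highest, and in the mid gastrula list it was 66.5% and 99.8%. How far peaks near the threshold of a list make up this gradient was not tested.

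**Figure D1:**
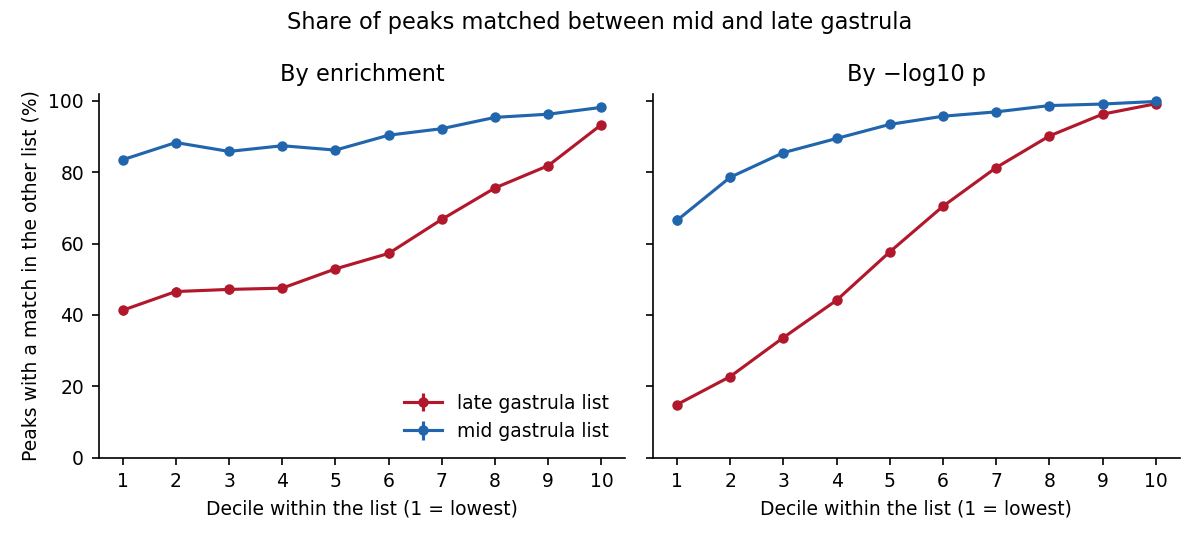
Share of peaks with a match in the other list (y axis, %) by decile within the list (x axis, 1 is lowest) of enrichment (left) and of −log10 p (right), late gastrula in red and mid gastrula in blue; bars are Wilson 95% intervals, mostly smaller than the points. The late gastrula share runs from 41.3% to 93.3% by enrichment and from 14.9% to 99.1% by −log10 p, while mid gastrula starts at 83.4% and 66.5%.

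Unmatched peaks sat lower in their list than matched ones. Late-only peaks had a median enrichment percentile of 35.6 (interval 35.1 to 36.2), against 61.8 (61.3 to 62.2) for matched late gastrula peaks. Mid-only peaks had a median of 35.1 (34.2 to 35.8), against 52.2 (51.7 to 52.7) for matched mid gastrula peaks. By −log10 p the medians were 24.7 for late-only and 67.7 for matched late gastrula peaks, and 16.2 for mid-only and 54.1 for matched mid gastrula peaks. The maximum score of 1000 was held by 6.40% of late-only and 60.7% of matched late gastrula peaks. It was held by 3.29% of mid-only and 41.9% of matched mid gastrula peaks. Few unmatched peaks ranked high: 433 late-only peaks (1.72%) and 81 mid-only peaks (1.93%) stood in the top decile of enrichment of their list. For matched peaks these shares were 15.3% at late and 10.8% at mid gastrula.

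Unmatched peaks were also narrower, and by a similar amount at both stages. The median width was 234 bp for late-only peaks and 303 bp for matched late gastrula peaks. It was 247 bp for mid-only peaks and 305 bp for matched mid gastrula peaks. Matched peaks thus had nearly the same width in both lists, and the lower median of the late gastrula list as a whole, 273 bp against 299 bp at mid gastrula, went with its many late-only peaks. Under 200 bp wide were 26.7% of late-only, 7.75% of matched late, 22.2% of mid-only and 8.33% of matched mid gastrula peaks. At least 500 bp wide were 2.96%, 13.7%, 2.98% and 13.7% in the same order. Over 1000 bp, there were 4 late-only peaks among 135 in the late gastrula list, and 1 mid-only peak among 118 in the mid gastrula list.

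**Figure D2:**
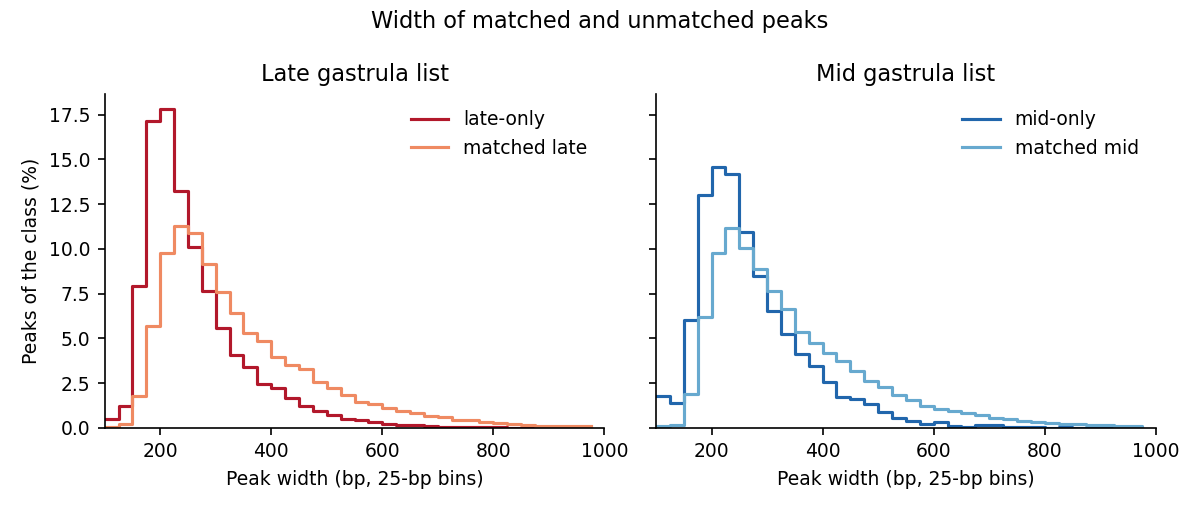
Peak width in 25-bp bins (x axis, bp, up to 1000) against the share of the class (y axis, %) for the late gastrula list (left, late-only in dark red, matched in orange) and the mid gastrula list (right, mid-only in dark blue, matched in light blue). In both lists the unmatched class is shifted to narrow widths, with medians of 234 and 303 bp at late gastrula and 247 and 305 bp at mid gastrula.

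A wider peak meets the overlap rule more easily, and width and rank go together, so width and enrichment were taken at once. In the late gastrula list the matched share was 34.0% in the narrowest of 5 width classes of about equal size (100 to 208 bp) and 82.4% in the widest (400 to 1668 bp). Within the lowest of 5 such classes of enrichment it was 29.8% for the narrowest and 68.3% for the widest peaks. Within the highest it was 71.2% and 93.4%. In the mid gastrula list the shares were 82.1% for the narrowest class and 96.7% for the widest. Within the lowest enrichment class they were 78.2% and 95.1%, and within the highest 96.2% and 98.8%. Matching thus went with width among peaks of like enrichment, most weakly among the mid gastrula peaks of highest enrichment. Rank by −log10 p was not held alike here, so width is not set apart from it.

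Summits, the points of highest signal, lay near the middle of peaks in every class. The median summit stood at 49.5% of the peak's length in late-only, matched late, mid-only and matched mid gastrula peaks alike. It was in the central part, between 33.3% and 66.7% of the length, in 85.4% of late-only and 81.4% of matched late gastrula peaks, and in 82.5% of mid-only and 80.3% of matched mid gastrula peaks. Measured in bp, the median summit was 16 bp from the centre in late-only and 22 bp in matched late gastrula peaks. It was 19 bp from the centre in mid-only and 23.5 bp in matched mid gastrula peaks.

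Unmatched peaks stood farther from other peaks than matched ones. The median gap to the next peak of the same list was 2454 bp for late-only peaks (interval 2388 to 2539) and 1190 bp for matched late gastrula peaks (1155 to 1227). It was 4855 bp for mid-only peaks (4521 to 5206) and 2278 bp for matched mid gastrula peaks (2214 to 2341). At late gastrula, where the list is longer and so denser, 33.6% of late-only and 47.0% of matched peaks had a neighbour within 1000 bp. At mid gastrula these shares were 29.1% of mid-only and 37.6% of matched peaks. No neighbour within 30000 bp was found for 5.36% of late-only and 3.05% of matched late gastrula peaks, and for 11.3% of mid-only and 6.14% of matched mid gastrula peaks.

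The enrichment percentile differed with this spacing more than the percentile of −log10 p did. Late-only peaks with a neighbour at 500 to 1000 bp had a median enrichment percentile of 21.02, and those with none within 30000 bp had 56.1. For matched late gastrula peaks these medians were 45.2 and 87.2. Mid-only peaks had medians of 18.6 and 49.7, and matched mid gastrula peaks 33.3 and 75.02. By −log10 p the medians at these spacings were 22.9 and 27.2 for late-only and 66.7 and 67.8 for matched late gastrula peaks. They were 17.04 and 19.3 for mid-only and 56.5 and 50.8 for matched mid gastrula peaks. The 456 mid-only peaks with a neighbour under 100 bp away stood apart by −log10 p, at a median of 4.66. By medians, peaks with no neighbour within 30000 bp thus ranked highest by enrichment in each class, while their −log10 p was of like rank to that at 500 to 1000 bp. The rise with spacing was not steady. Under 100 bp the enrichment medians were 23.2 for late-only and 57.4 for matched late gastrula peaks. They were 9.34 for mid-only and 45.9 for matched mid gastrula peaks. The matched classes stayed above the unmatched ones at each spacing by either measure.

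**Figure D3:**
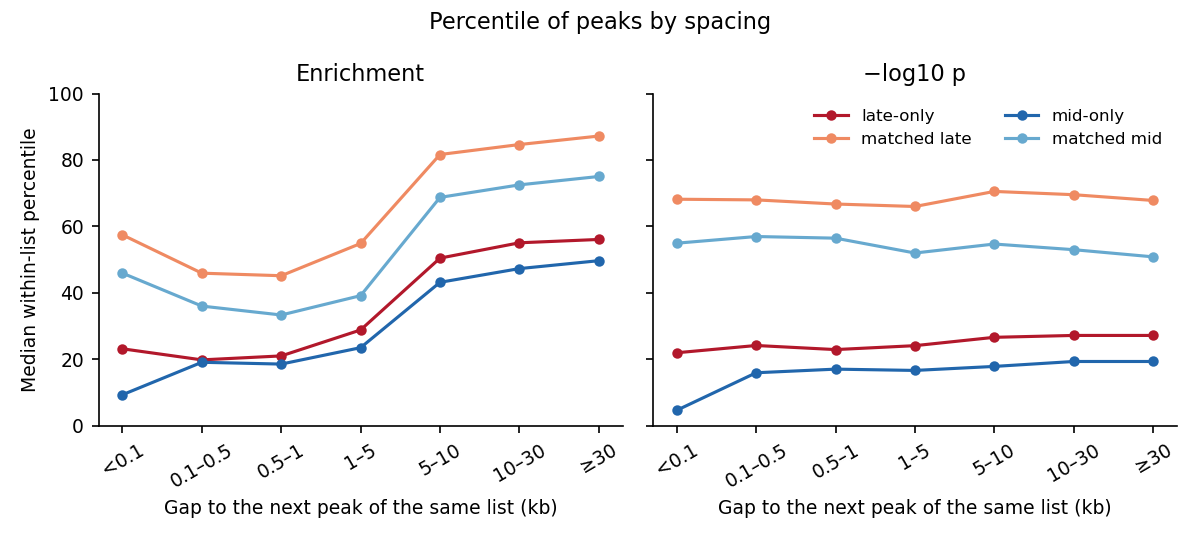
Median within-list percentile (y axis) of enrichment (left) and of −log10 p (right) by the gap to the next peak of the same list (x axis, kb), for late-only, matched late, mid-only and matched mid gastrula peaks. By enrichment the late-only median is 21.02 at 0.5 to 1 kb and 56.1 at 30 kb and over, while by −log10 p it is 22.9 and 27.2.

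Most unmatched peaks were not near misses. The nearest mid gastrula peak lay a median of 4583 bp from a late-only peak, and the nearest late gastrula peak 2709 bp from a mid-only peak. Under 100 bp away were 1439 late-only peaks (5.70%) and 422 mid-only peaks (10.1%). At 50000 bp or more were 1391 late-only peaks (5.51%) and 143 mid-only peaks (3.41%). At the edge of the rule, 25 pairs overlapped by 1 to 10 bp, while 13 late-only and 11 mid-only peaks missed a partner by fewer than 10 bp. The 25 pairs had median widths of 260 bp at late and 329 bp at mid gastrula and median percentiles of 33.4 and 52.8. The 13 late-only peaks had medians of 254 bp and percentile 27.8, and the 11 mid-only peaks 199 bp and percentile 7.52. Late-only peaks under 100 bp from a mid gastrula peak held the maximum score in 10.8% of cases, against 6.16% of those at 10000 to 50000 bp. For mid-only peaks the shares were 14.0% and 2.23%.

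Unmatched peaks lay beside each other somewhat more often than matched peaks lay beside an unmatched one. With the late gastrula peak nearest to each peak taken as its neighbour, 41.5% of late-only peaks had a late-only neighbour, against 34.3% of matched late gastrula peaks and 39.0% of the whole list. Where the neighbour lay within 1000 bp, these shares were 37.5% and 27.6%. In the mid gastrula list, 13.1% of mid-only peaks had a mid-only neighbour, against 8.72% of matched mid gastrula peaks and 9.69% of the whole list. Matched groups, late-only and mid-only peaks were then put in 1 order along the scaffolds, 68068 elements in all. Of these, 25234 were late-only, 38638 matched and 4196 mid-only. Late-only peaks formed 15287 runs in this order, and 37.3% of late-only peaks stood alone, against 17.4% of matched groups. Runs of at least 5 held 9.61% of late-only peaks, in 411 places, and 32.4% of matched groups. Of mid-only peaks 84.6% stood alone, and no run reached 5. The lengths of runs depend on how many elements a class has, and no departure from a random order was tested.

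The longest run of late-only peaks counted 12 and spanned 196.5 kb of scaffold 17, from 24842431 to 25038957. Its peaks were 182 to 460 bp wide, with enrichment percentiles of 13.6 to 85.5, and none had the maximum score. For mid-only peaks the longest runs counted 4, and there were 3 of them. They lay on scaffold 4 from 12185970 to 12260168, on scaffold 12 from 17210860 to 17222707 and on scaffold 27 from 979173 to 1059911. The run on scaffold 12 was the most compact, with 4 peaks in 11.8 kb, 172 to 272 bp wide and at most at the 50.7 percentile.

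Most windows along the large scaffolds held more late than mid gastrula peaks. Of 10771 windows of 100 kb on the 27 scaffolds of at least 10 Mb, 8829 held a late gastrula peak and 8056 a mid gastrula peak. Only late gastrula had a peak in 882 windows, and only mid gastrula in 109. More late than mid gastrula peaks were counted in 7040 windows, fewer in 488, and 1410 occupied windows had equal numbers. Windows without a mid gastrula peak held 1397 late-only peaks. In windows with 1 or 2 mid gastrula peaks, 54.2% of late gastrula peaks were late-only, at 1.45 per window. In windows with 11 or more, 29.7% were late-only, at 5.46 per window. A late gastrula peak in a window with few mid gastrula peaks has fewer to overlap. The most late-only peaks in 1 window was 16, on scaffold 13 from 33700001 to 33800000, among 30 late and 15 mid gastrula peaks.

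By scaffold, late-only density went with matched density. It ran from 8.30 per Mb on scaffold 26 to 30.8 per Mb on scaffold 14, with a median of 25.3. Matched late gastrula peaks had their lowest and highest densities on the same scaffolds, 11.4 and 55.6 per Mb. Mid-only density ran from 1.001 per Mb on scaffold 26 to 5.76 per Mb on scaffold 14. Across the 27 scaffolds, late-only and matched density had a Pearson r of 0.985 and a Spearman rho of 0.973, given as a description because all scaffolds come from the same libraries. The late-only share of late gastrula peaks was lowest on scaffold 14, at 35.6%, and highest on scaffold 3, at 44.3%. The mid-only share of mid gastrula peaks was lowest on scaffold 26, at 8.19%, and highest on scaffold 3, at 11.9%. Scaffolds under 10 Mb held 1094 late gastrula peaks, 41.7% of them late-only, and 730 mid gastrula peaks, 13.6% of them mid-only.

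**Figure D4:**
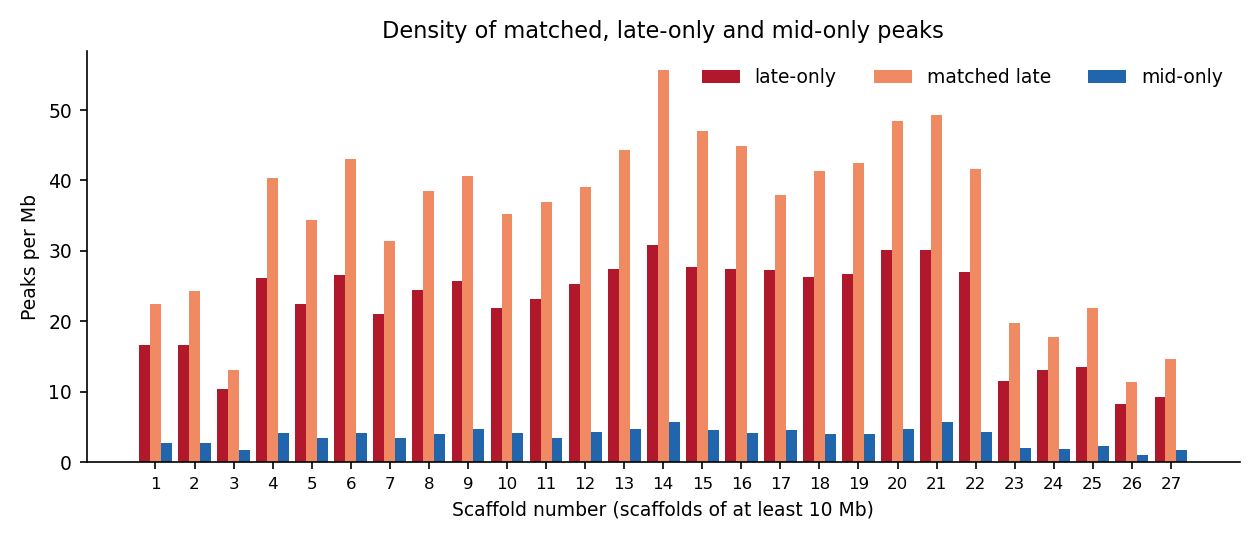
Peaks per Mb (y axis) on each of the 27 scaffolds of at least 10 Mb (x axis, scaffold number), with bars for late-only (dark red), matched late (orange) and mid-only peaks (blue). Scaffold 14 has the highest and scaffold 26 the lowest density of all 3 classes, 30.8 and 8.30 per Mb for late-only peaks.

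Matched regions ranked much alike in both lists. Over the 37413 one-to-one pairs the enrichment percentiles at late and mid gastrula had a Spearman rho of 0.891 and a Pearson r of 0.887, again a description across regions of the same libraries. Over all 39962 pairs the median percentile shift, late minus mid, was 4.27 points (interval 4.13 to 4.42), with the middle 50% of pairs between -1.51 and 13.8. The percentile was higher at late gastrula in 68.6% of pairs and lower in 31.4%. The late-only peaks take part in the late gastrula ranking, mostly in its lower part. When matched peaks were ranked among themselves, the median shift was -0.24 points (-0.32 to -0.16), and 48.6% of pairs were higher at late gastrula. On that scale 61.0% of pairs stayed within 10 points. By −log10 p in the whole lists the median shift was 8.45 points.

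Large shifts were few. The percentile was at least 25 points higher at late gastrula in 3991 pairs (9.99%) and at least 25 points lower in 823 (2.06%). Ranked among matched peaks alone, these were 1960 and 1705 pairs, or 4.90% and 4.27%. In the whole lists, shifts were larger in the middle of the range than at its ends. Pairs in the lowest mid gastrula decile had a median shift of 3.15 points and those in the highest 0.13, against 11.4 in decile 5. Ranked among matched peaks alone this peak in the middle was gone. The median shift was then 1.04 points in decile 1, 2.69 in decile 2, 2.44 in decile 3, 0.65 in decile 4 and 1.73 in decile 5. It was negative in each decile above the fifth, with -3.44 in decile 8 and -1.38 in decile 10. Percentiles are bounded, which leaves little room for a fall in the lowest decile or a rise in the highest. The deciles were also set by the mid gastrula percentile, which is itself subtracted in the shift. The size and sign of the shift by decile therefore cannot be read as a difference between the stages. Of the 4327 pairs whose mid gastrula peak was in the top decile, 3611 were in the top decile at late gastrula too.

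Pairs with a large shift differed from the others in spacing and in width. Among one-to-one pairs, 3603 were at least 25 points higher at late gastrula, 426 at least 25 points lower, and 33384 between. The median gap to the next late gastrula peak was 2842 bp, 2018.5 bp and 1235 bp in that order. Pairs with the upward shift were 275 bp wide at late and 253 bp at mid gastrula, by medians. Those with the downward shift were 270.5 bp wide at late and 305.5 bp at mid gastrula, and those between were 307 and 308 bp. The late gastrula peak was the wider one in 70.4% of upward, 25.1% of downward and 49.3% of other pairs. All pairs with the upward shift also had a higher −log10 p percentile at late gastrula, as had 0.704% of those with the downward shift and 75.2% of those between. Width, −log10 p and enrichment come from the same reads.

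The shift in rank of a matched pair differed with its spacing, though not steadily. One-to-one pairs whose late gastrula peak had a neighbour at 100 to 500 bp had a median shift of 3.28 points in the whole lists and -0.96 among matched peaks alone. Pairs with no late gastrula neighbour within 30000 bp had medians of 6.44 and 2.00 points. The percentile was higher at late gastrula in 66.9% of the first and 78.4% of the second. An upward shift of at least 25 points was found in 6.24% and 13.8% of these pairs. Pairs with a late gastrula neighbour under 100 bp away did not have the smallest shifts. Their medians were 4.92 points in the whole lists and -0.26 among matched peaks alone, and 71.1% were higher at late gastrula.

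Summits and widths of matched regions were close in both lists. The 2 summits of a pair lay a median of 9 bp apart. They were at the same base in 9.03% of pairs, within 10 bp in 54.2% and within 50 bp in 85.0%. Summits at least 150 bp apart, about the length of DNA around a nucleosome, were found in 1896 of all pairs (4.74%), but in only 608 of the 37413 one-to-one pairs (1.63%). The rest belonged to the 2549 pairs in which a peak of at least 1 stage had several partners or shared one. The directions were balanced, with 45.7% of late gastrula summits at higher and 45.3% at lower coordinates than their mid gastrula partner. Late gastrula peaks were wider in 50.2% of pairs and narrower in 48.6%, with a median difference of 1 bp and 90% of pairs between -213 and 175 bp. The shared stretch was a median of 89.0% of the stretch covered by either peak.

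**Figure D5:**
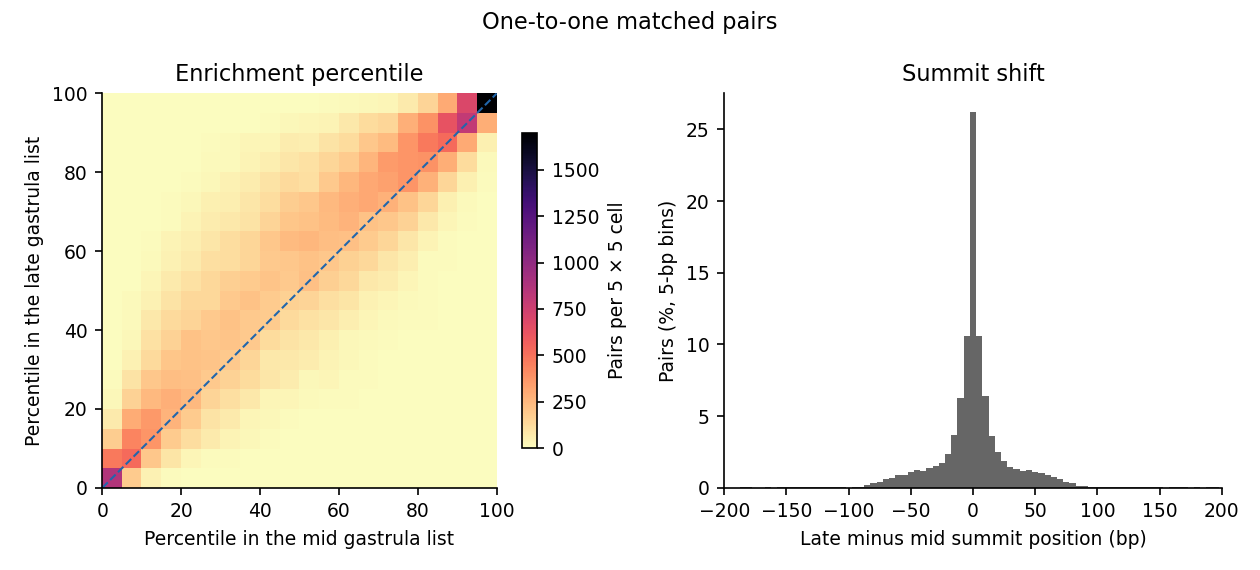
One-to-one matched pairs: left, enrichment percentile at late gastrula (y axis) against that at mid gastrula (x axis), with the number of pairs per cell of 5 by 5 points as colour and equality as a dashed line; right, late minus mid gastrula summit position (x axis, bp) against the share of pairs (y axis, %). Pairs lie along and somewhat above the line of equality (Spearman rho 0.891), and summit shifts are centred on 0.

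Distant summits were found in broad peaks. Among the 2481 one-to-one pairs with a mean width under 200 bp no summits were 150 bp or more apart, which such a width hardly allows. From 400 to 600 bp, 331 of 7572 pairs did (4.37%), and from 600 bp up 204 of 2065 (9.88%). Even in this broadest class the median summit distance was 12 bp. The 608 one-to-one pairs with summits at least 150 bp apart had median widths of 549 bp at late and 525 bp at mid gastrula. They ranked at median percentiles of 45.5 at late and 35.8 at mid gastrula, against 64.3 and 55.9 for the 3467 pairs with the summit at the same base. Their median percentile shift of 4.47 points was close to the 4.38 points of all one-to-one pairs.

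The late-only peaks of highest enrichment were strong in their list. The first, on scaffold 8 at 26704827 to 26705096 with its summit at 26704956, had an enrichment of 22.2 (percentile 99.7) and a −log10 p of 77.6. Its nearest late gastrula neighbour was 31484 bp away and the nearest mid gastrula peak 46599 bp. The second, on scaffold 9 at 10075843 to 10076135, had an enrichment of 21.9. It stood 29 bp from another late gastrula peak and 48433 bp from any mid gastrula peak. The third, on scaffold 7 at 36257746 to 36258235, had an enrichment of 20.6 and lay 26326 bp from the nearest mid gastrula peak. All 3 had the maximum score and were far from any mid gastrula peak.

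The corresponding mid-only peaks also ranked near the top of their list. The first was on scaffold 62 at 732309 to 732606, with its summit at 732424, an enrichment of 24.6 (percentile 99.9) and a −log10 p of 79.4. Its nearest late gastrula peak was 5394 bp away. Next, with equal values, came scaffold 15 at 34178088 to 34178476 and scaffold 103 at 52011 to 52278. Both had an enrichment of 20.5 and a −log10 p of 62.3. The scaffold 15 peak had a score of 558 and lay 34322 bp from the nearest late gastrula peak. The scaffold 103 peak was the only peak of either list on its scaffold.

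The strongest pairs held the top of both lists. On scaffold 2 the late gastrula peak at 2129407 to 2129792 had an enrichment of 30.7, and its mid gastrula partner at 2129407 to 2129749 had 30.2, the highest of the mid gastrula list. On scaffold 22 the late gastrula peak at 949137 to 949657 had 29.4 and its partner at 949136 to 949665 had 29.3, with the summit at 949341 in both. On scaffold 57 the late gastrula peak at 745296 to 745610 had 32.3, the highest of the late gastrula list, and its partner at 745293 to 745600 had 28.2.

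The largest upward shifts of one-to-one pairs joined a low mid gastrula rank with a high late gastrula rank. On scaffold 17 the late gastrula peak at 9039599 to 9039971 stood at percentile 85.1 and its mid gastrula partner at 9039602 to 9039992 at 16.4, with summits 141 bp apart. On scaffold 20 the late gastrula peak at 6840065 to 6840434 stood at 80.3 and its partner at 6840132 to 6840434 at 11.95. The scaffold 6 pair, at 17358616 to 17358861 in late and 17358615 to 17358845 in mid gastrula, stood at 96.1 and 29.9. All 3 late gastrula peaks had the maximum score, against mid gastrula scores of 423, 529 and 444.

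Among one-to-one pairs the largest downward shifts in the whole lists were smaller, reaching -55.6 points against 68.7 upward. Over all pairs, including peaks with several partners, the extremes were -97.1 and 98.1 points. Ranked among matched peaks alone, the extremes of one-to-one pairs were nearly equal, at -62.8 and 65.4 points. On scaffold 12 the late gastrula peak at 19477504 to 19477751 stood at percentile 30.8, and its mid gastrula partner at 19477487 to 19477793 at 86.4. On scaffold 20 the late gastrula peak at 28805020 to 28805424 stood at 29.1 and its partner at 28805039 to 28805507 at 84.6. The scaffold 14 pair, at 33574502 to 33574665 in late and 33574438 to 33574718 in mid gastrula, stood at 33.4 and 88.1. In all 3 the late gastrula peak was the narrower, by 59, 64 and 117 bp, and the summits were 11, 4 and 1 bp apart.

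Some pairs differed greatly in extent, with shifts in rank that were small in some and larger in others. The largest widening of a one-to-one pair was on scaffold 19. There the late gastrula peak at 1407817 to 1409081 was 1265 bp wide and its mid gastrula partner at 1408036 to 1408340 was 305 bp. Their summits were 31 bp apart and their percentiles 84.5 and 88.8. On scaffold 1 the late gastrula peak at 5436751 to 5437950 was 1200 bp wide and its partner 292 bp, with summits 742 bp apart and percentiles of 32.1 and 15.8. On scaffold 9 the late gastrula peak at 36976423 to 36977432 was 1010 bp wide and its partner 259 bp, with summits 754 bp apart, the farthest of all one-to-one pairs. The percentiles of this pair were 57.8 and 64.4. The 3 largest narrowings of one-to-one pairs all lay on scaffold 14. There the late gastrula peaks at 21346969 to 21347229, 13259449 to 13259821 and 4554211 to 4554403 were 261, 373 and 193 bp wide, against 963, 1000 and 792 bp for their mid gastrula partners. The percentile shifts of these pairs were -3.78, 1.79 and 18.3 points. A pair on scaffold 8 kept its extent but not its summit: the late gastrula peak at 1042465 to 1043409 was 945 bp wide and its partner 965 bp, with summits 702 bp apart.

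With the late gastrula list shortened to the 43317 peaks of the mid gastrula list, the shares matched were nearly equal at both stages, as equal lengths require for one-to-one pairs. What remained depended on how peaks were ranked. Kept by enrichment, 68.8% of late gastrula peaks (68.4 to 69.2) and 68.9% of mid gastrula peaks (68.4 to 69.3) were matched. Kept by −log10 p these shares were 78.6% and 78.7%, and kept by score, with ties broken by −log10 p, 79.2% and 79.1%. Ranking by enrichment removed 46.5% of late-only and 24.5% of matched late gastrula peaks, and ranking by −log10 p removed 63.3% and 13.8%. Of the mid gastrula peaks, 9288 lost their partner when the late gastrula list was shortened by enrichment. Unmatched peaks then numbered 13512 at late and 13484 at mid gastrula by enrichment, and 9269 and 9242 by −log10 p.

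Some features of the classes held at equal length and others did not. Late-only peaks were narrower than matched late gastrula peaks, at 246 and 312 bp by enrichment and 266 and 316 bp by −log10 p. Mid-only peaks were narrower than matched mid gastrula peaks at this length, at 269 and 312 bp by enrichment and 243 and 316 bp by −log10 p. By either ranking most of these mid-only peaks had a partner in the whole late gastrula list, which the cut removed. In shorter lists ranked by enrichment the mid-only difference in width became smaller and then turned round. Both lists were cut there, so peaks whose partner ranked below the cut count as unmatched. With 5000 peaks per list 1530 were mid-only, while the 4310 mid gastrula peaks of the top decile held only 81 that were mid-only in the whole lists. Mid-only and matched mid gastrula medians were 295.5 and 320 bp with 30000 peaks per list, 315 and 331 bp with 20000, 341 and 346 bp with 10000, and 363 and 353 bp with 5000. Late-only peaks were narrower in each of these lists, with 302 bp against 348 bp for matched late gastrula peaks at 5000. The list of 5000 had 1530 late-only peaks, although the cut removed 24956 of the 25234 late-only peaks of the whole lists. Most of the 1530 thus had a mid gastrula partner in the whole lists. The lower median width of the whole late gastrula list shrank to 288 bp against 299 bp by enrichment, and by −log10 p it turned round to 303 bp against 299 bp. The median percentile shift turned round as well, to -4.35 points by enrichment, -3.12 by −log10 p and -1.53 by score. Percentiles were taken anew in the shortened late gastrula list. The cut by enrichment removed only its low end, so the percentiles of the peaks kept cannot rise. The change of sign under that cut is therefore no result about the stages. Under the cuts by −log10 p and by score it cannot be told apart from the change of list.

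Spacing at equal length turned on the ranking. With 43317 peaks per list, late-only peaks were the more isolated class of theirs, with a median gap of 6842 bp against 4826 bp for matched peaks by enrichment and 5153 bp against 2420 bp by −log10 p. Mid-only peaks had a median gap of 1113 bp against 4056 bp for matched peaks by enrichment, the reverse of the whole lists, but 3079 bp against 2306 bp by −log10 p. By none of the rankings is this mid-only class that of the whole lists, which numbered 4196. By enrichment it held 13484 peaks, of which 9288 had a late gastrula partner in the whole lists that the cut removed. By −log10 p it held 9242 peaks and by score 9067, most of them also peaks that had lost their partner. With the 5000 peaks of highest enrichment the late gastrula order turned round too, to 55133 bp for late-only and 57774 bp for matched peaks. Most of those late-only peaks had a mid gastrula partner in the whole lists. In lists of the 30000, 20000, 10000 and 5000 peaks of highest enrichment, matched shares were 73.4%, 73.8%, 72.1% and 69.4% at late gastrula. At mid gastrula they were 73.4%, 73.7%, 72.15% and 69.4%.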

How the data were processed

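Peak lists of the late and mid gastrula were compared, 1 list per stage from 2 libraries each. Per the submitters' processing notes, Bowtie2, bedtools and MACS2 were used, without version, role or settings. The authors deposited the lists without a header, in 12 columns laid out as by the IDR tool, and named them IDR peaks. IDR, the irreproducible discovery rate, keeps peaks that rank alike in replicates. From the authors come, for each peak, a fold enrichment, a −log10 p and a score that follows from its IDR, which was at most 0.1. The sources say nothing of a Tn5 shift, of duplicate removal or of pooling before peak calling, nor whether both libraries of one stage were grown apart.

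Width is end minus start, and the summit is start plus the deposited offset. Percentiles are average ranks within a list. No peak overlapped another of its own list. Matching was checked against bedtools 2.31.1, which gave the same pairs, and on simulated lists. Scaffold lengths come from the names, or from the last peak end in 8 of 128 scaffolds, where peaks reach past the named length. Shares have Wilson intervals and medians order-statistic intervals. Sites were named by rules of rank: the 3 highest unmatched peaks per list by enrichment, the 3 one-to-one pairs of highest mean percentile, of largest rise and fall in percentile, of largest gain and loss in width and of farthest summits, and the longest runs. Alternatives changed the overlap rule, list length, IDR limit, rank measure, scaffolds and pairs. Members, measures and rules were chosen with earlier results of these data known. Nearest genes were planned but not run, because no build is named. Python 3.11.15 with NumPy 2.4.6, pandas 2.3.3, SciPy 1.17.1, NetworkX 3.6.1 and Matplotlib 3.10.9 was used.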

Additional observations from a re-analysis of the deposited data

How the results depend on the processing

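Of 124 values under alternatives for 13 results, 47 stayed within the main value's interval (within 1.5 times for counts), 69 moved and 8 reversed. Alternatives for gaps, and lists of 30000, 10000 and 5000 peaks, were chosen after seeing the data. No paired analysis was possible because the lists carry no values of single libraries, and no replicate could be left out for the same reason. Nearest genes were not run. The cause of the differences was not tested.

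The matched share of late gastrula peaks was 59.7% with each summit inside the other peak, 59.2% with summit windows of 200 bp, 68.8%, 78.6% and 79.2% at equal length by enrichment, −log10 p and score, 73.8% with 20000 peaks each, and 61.5% at an IDR of at most 0.01. That of mid gastrula peaks was, in the same order, 89.1%, 88.4%, 68.9%, 78.7%, 79.1%, 73.7% and 93.9%. At equal length by the 3 rankings there were 13512, 9269 and 9008 late-only and 13484, 9242 and 9067 mid-only peaks. With 20000 peaks each 5243 were late-only, and at the stricter IDR 12796 were late-only and 1320 mid-only.

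Unmatched peaks stayed narrower under each alternative listed here. An exception among the added lists was that of 5000 peaks, where mid-only peaks had a median of 363 bp and matched mid gastrula peaks 353 bp. In cut lists the unmatched classes can include peaks whose partner was removed by the cut. For late-only minus matched late gastrula peaks the median difference was -66, -50 and -53 bp at equal length by the 3 rankings and -56 bp with 20000 peaks. For mid-only minus matched mid gastrula peaks it was -43, -73 and -66 bp, then -16 bp with 20000 peaks, -47 bp with summit windows and -49 bp at the stricter IDR.

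The late-only minus matched difference in median percentile was -7.61 at equal length by −log10 p, -13.04 by score, -31.02 with 20000 peaks, -12.2 at the stricter IDR and -43.04 ranked by −log10 p. The mid-only minus matched difference was -18.7 with each summit inside the other peak, -46.5, -29.4 and -23.5 at equal length, -39.25 with 20000 peaks, -7.78 at the stricter IDR and -37.8 ranked by −log10 p. At equal length by each ranking the mid-only class includes peaks whose partner was removed by the cut, 9288 of them by enrichment.

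The late-only minus matched difference in median gap was 1012 bp with summits inside, 1001 bp with summit windows, 2016, 2733 and 1932 bp at equal length, 949.5 bp with 20000 peaks and 2065.5 bp at the stricter IDR. The mid-only minus matched difference was 1219 bp, 1206 bp, -2943, 773 and 1714 bp, -1079 bp and 1434 bp in the same order, so it reversed at equal length by enrichment and with 20000 peaks. At equal length by enrichment, 9288 of the 13484 mid-only peaks had a partner in the whole late gastrula list. The mid-only class also took in peaks that lost their partner in the other cuts. It held 9242 by −log10 p, 9067 by score and 5260 with 20000 peaks, against 4196 in the whole lists. With 20000 peaks the late-only class took in such peaks too.

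The median percentile shift of pairs reversed to -4.35, -3.12 and -1.53 points at equal length, to -1.89 with 20000 peaks and to -0.24 among matched peaks alone. It was 2.32 at the stricter IDR and 8.45 ranked by −log10 p. At equal length the late gastrula percentiles were taken anew in the shortened list, and by enrichment they cannot rise there. The median width shift was 2 bp at equal length by each ranking and -2 bp at the stricter IDR. The median summit distance was 7 bp with 20000 peaks, and 8 bp with summits inside, summit windows, equal length by enrichment or −log10 p, the stricter IDR or one-to-one pairs.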
